A study of Mus musculus with 12 samples.

Results

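Cluster 10 of the 28W spleen library is a small group of cells marked by B cell genes within a sort for CD8+ T cells. Its members are the cells that the authors assigned to cluster 10, which came to 247 of the 6481 cells of that library and of the 20510 cells of the series. This is 3.81% of the library (95% exact binomial interval 3.36 to 4.31%) in a gate set on PD-1, CD44 and CD8. PD-1+CD44+CD8+ T cells of female NZB/W F1 mice, an NZB by NZW cross used as a model of lupus nephritis, were profiled by single-cell RNA sequencing with 10x Genomics 5′ chemistry. Library 28W spleen was made from spleens at 28 weeks of age, 12W spleen from spleens at 12 weeks and 28W kidney from kidneys at 28 weeks, with no transgene and no treatment named for any group. The labels list 4 samples a group, whose titles end in what may be sequencing lane numbers, and the deposited tables pool them, so each group was 1 library without a replicate, and the number of mice behind it is not stated. For 28W spleen the age entry of the labels gives 12 weeks while the title gives 28W, and the title was followed.

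B cells recognise antigen through a membrane immunoglobulin that signals through *Cd79a* and *Cd79b*, and they show peptides to CD4 T cells on MHC class II molecules. After activation they can switch from *Ighm* to other heavy chain constant genes and become plasma cells, which secrete antibody, and lupus in NZB/W F1 mice is known for autoantibodies of this origin. MHC class II genes are also used by dendritic cells and macrophages, so MHC class II alone does not tell these cell types apart.

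Levels are given as unique molecular identifiers (UMIs, 1 for each captured transcript) per 1000000 UMIs of a cluster (CPM), with no correction for length. Cluster 10 held 691759 UMIs, or 2801 per cell, against 5026 per cell over the other 6234 cells. By UMIs per cell it ranked 4 from the lowest of 11 clusters. In cluster 10, 1 UMI corresponds to 1.45 CPM, and a gene with 0 UMIs may still have been present at up to 4.34 CPM, the level of 3 counts. The mitochondrial share of its UMIs was 1.14%, within the 0.869 to 6.64% of the other clusters, and the ribosomal protein share was 27.2%, within 10.0 to 38.2%. Intervals are 95% exact intervals that cover counting error only, and because a cluster is made from these genes, its contrast with the other clusters is a description without a test. In such pooled sums, fewer cells of a type and less RNA per cell cannot be told apart. A doublet caller could not be run without values per cell. Over the whole 28W spleen library, 52 cell barcodes (0.802%) were shared with 12W spleen and 66 (1.02%) with 28W kidney. Of the barcodes of cluster 10, 2 were shared with 12W spleen and 4 with 28W kidney. Values without these cells could not be computed.

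The markers of the label were present at high level. *Cd79a* (chromosome 7, 24897381 to 24902197, GRCm38), the signalling chain of the B cell receptor, stood at 1196 CPM (1115 to 1280) in cluster 10 and at 0 to 39.1 CPM in the other 10 clusters, with a median of 0.968. *Cd74*, the invariant chain that guides MHC class II molecules, stood at 16243 CPM (15944 to 16546) against 10.7 to 540 CPM (median 21.2). *H2-Aa* (chromosome 17, 34282744 to 34287823), an MHC class II alpha chain, stood at 5288 CPM (5118 to 5462) against 1.84 to 104 CPM (median 7.17). For all 3 genes cluster 8, with haemoglobin and neutrophil genes, was the next highest, and no other cluster overlapped cluster 10. The data go against the label in another respect. Genes that B cells are not known for, among them *Cst3* and *Siglech* of dendritic cells and *C1qa* of macrophages, were also highest in these cells, as described further on. The group is therefore called cluster 10 here rather than B cells.

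Since *H2-Aa* and other MHC class II genes lead the cluster, the sequence upstream of them is shown. MHC class II promoters are known for a Y box, an inverted CCAAT element. The motif GATTGG was searched on both strands in the 250 bases before each RefSeq gene start (GRCm38.p6). It was found for 8 of 8 matched genes among the 11 of the MHC class II list, while 14.6% of all 32851 promoter windows held it. The 2 measures differ, since a gene counted if any of its windows held the motif. *H2-DMa* had 2 windows, of which 1 held it, at 199 bases before the start. *Cd74*, *H2-Ab1* and *Ciita* had no entry. The stretches below run 5′ to 3′ on the strand of the gene, with the motif nearest to the start in capitals. *H2-Aa* (chr17:34287827-34287912, minus strand) and *H2-Eb1* (chr17:34305792-34305866, plus strand) are the alpha and beta chain genes with the most UMIs among the matched genes. *H2-DMb1* (chr17:34153089-34153174, plus strand) and *H2-DMb2* (chr17:34145118-34145203, plus strand) encode beta chains of the H2-DM peptide exchange factor.
H2-Aa: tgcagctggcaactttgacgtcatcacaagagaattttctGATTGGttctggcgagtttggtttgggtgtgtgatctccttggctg
H2-Eb1: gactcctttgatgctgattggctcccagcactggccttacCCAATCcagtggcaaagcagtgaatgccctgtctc
H2-DMb1: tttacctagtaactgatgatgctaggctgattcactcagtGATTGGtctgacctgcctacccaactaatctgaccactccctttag
H2-DMb2: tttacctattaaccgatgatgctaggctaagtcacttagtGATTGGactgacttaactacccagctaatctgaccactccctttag
The first base of the motif lies 49 bases before the start of *H2-Aa*, 62 before *H2-DMb1* and 91 before *H2-DMb2*. In *H2-Eb1* the nearest match, 35 bases before the start, reads CCAATC, which is not the inverted orientation capitalised in the other stretches. The other of its 2 matches, in lower case in the same stretch, reads gattgg and has the inverted orientation. A match is a description of these letters and shows no binding.

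Against the pooled other clusters, cluster 10 was set apart by more genes that were higher than lower. A gene was called at a difference of at least 2-fold in CPM after adding 10 CPM to each side, which understates the change of low genes. Of 8042 genes with at least 10 CPM on either side, 694 (8.63%) were at least 2-fold higher and 393 (4.89%) at least 2-fold lower in cluster 10. The median log2 ratio over these genes was -0.17, and with it set to 0 the counts were 811 higher and 240 lower. With the other clusters weighted equally they were 678 and 590. Cluster 10 was above each other cluster for 1107 genes (13.8%) and below each of them for 1706 genes (21.2%).

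The B cell receptor list covers the receptor complex and the kinases and adaptors behind it. All 16 of its genes were at least 2-fold higher in cluster 10 (8.63% of all tested genes were) and above each other cluster (13.8% of all), with a median log2 ratio of 3.65 beside -0.17 for all tested genes. Summed over the list, cluster 10 held 3667 CPM (3526 to 3813), against 66.0 to 185 CPM in the other clusters (median 86.6). In the receptor complex itself, *Cd79b*, the partner of *Cd79a*, stood at 694 CPM (633 to 759) against 25.1 to 75.8 CPM (median 39.8), so that it was also seen at some level in every other cluster. *Ms4a1*, which encodes CD20, stood at 405 CPM (359 to 455) against 0 to 5.21 CPM (median 0). *Ms4a1* was near 0 in most other clusters, and 90.3% of its UMIs in the library were in cluster 10.

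The kinases that act on the receptor followed. *Lyn* stood at 220 CPM (186 to 258) against 0 to 7.82 CPM (median 1.41), *Blk* at 159 CPM (131 to 192) against 0 to 13.04 CPM (median 0.425), and *Syk* at 134 CPM (109 to 165) against 0 to 3.61 CPM (median 0.397). *Lyn* and *Syk* are also used by myeloid cells, while *Blk* is best known from B cells. The inhibitory receptors were lower in level. *Cd22* stood at 36.1 CPM (23.4 to 53.3) against 0 to 7.82 CPM and *Fcgr2b*, an inhibitory Fc receptor shared with myeloid cells, at 30.4 CPM (18.8 to 46.4) against 0 to 2.61 CPM. *Cr2*, the complement receptor CD21, stood at 46.3 CPM (31.6 to 65.3), with 6 UMIs in all other clusters together. Of all UMIs of the list in the library, 48.9% (47.6 to 50.3) were in cluster 10, which holds 2.16% of the UMIs of the library. With the clusters weighted equally, the share was 78.3%.

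**Figure D1:**
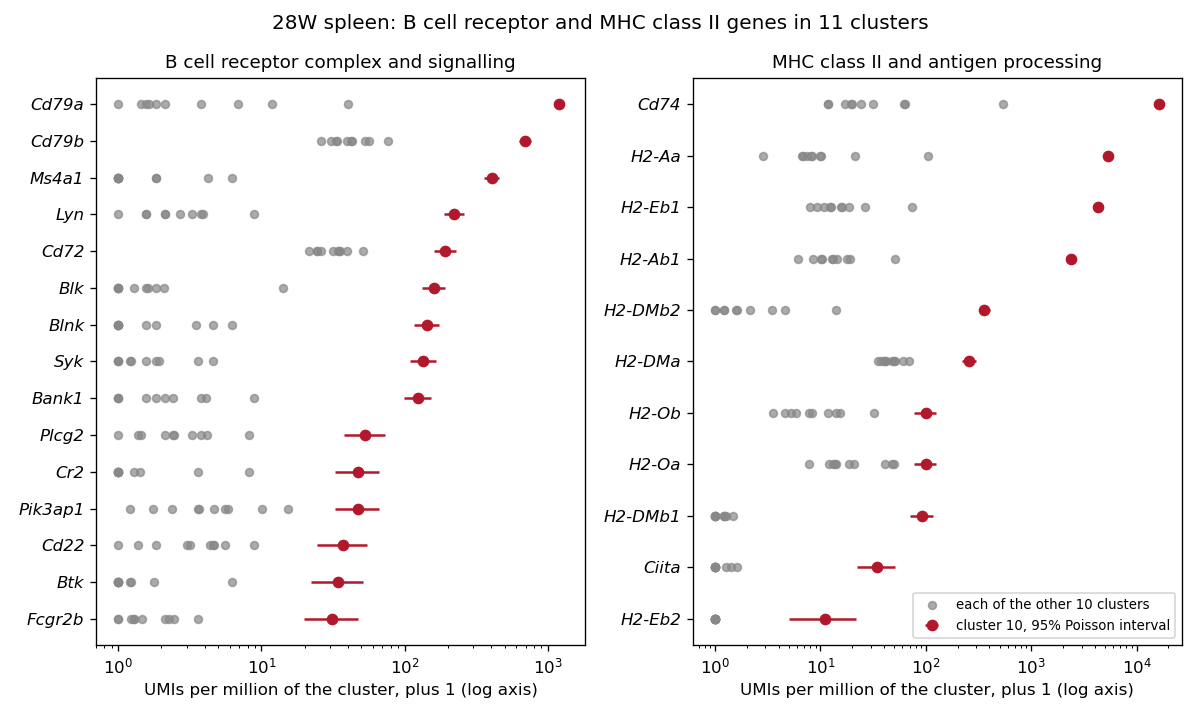
Level of 15 genes of the B cell receptor list (left) and the MHC class II list (right) in the 11 clusters of 28W spleen, as CPM plus 1 on a log axis. Red points are cluster 10 with 95% Poisson intervals, grey points are each of the other 10 clusters, and cluster 10 lies above each of them for all 15 and all 11 genes shown, with *Cd74* at 16243 and *H2-Eb2* at 10.1 CPM as the ends of the right panel.

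Of the 9 B cell transcription factors, 7 were at least 2-fold higher in cluster 10 (8.63% of all tested genes were). The median log2 ratio over the list was 2.86. *Ebf1*, which sets up the B lineage, stood at 178 CPM (148 to 212) against 0 to 5.21 CPM (median 0), with 4 UMIs in the other clusters together. *Pax5*, which keeps B cell identity, stood at 27.5 CPM (16.5 to 42.9) against 0 to 7.22 CPM. *Irf8*, used by B cells and dendritic cells alike, was the most abundant of the list at 476 CPM (426 to 530) against 3.83 to 62.1 CPM (median 12.2). The other two did not reach 2-fold. *Pou2f2* stood at 124 CPM (99.4 to 153) against 112 CPM over the other clusters, and *Bach2*, which restrains plasma cell differentiation and is also used by T cells, at 14.5 CPM (6.93 to 26.6) against 24.8 CPM.

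All 11 genes of the MHC class II list were at least 2-fold higher in cluster 10 (8.63% of all tested genes were). All were also above each other cluster (13.8% of all), and the median log2 ratio was 3.31. Their sum was 29147 CPM (28747 to 29553), or 2.91% of all UMIs of the cluster, against 89.5 to 873 CPM elsewhere (median 139). Next to *Cd74* and *H2-Aa*, the beta chain *H2-Eb1* stood at 4308 CPM (4155 to 4465) against 6.99 to 73.0 CPM, and the beta chain *H2-Ab1* at 2365 CPM (2252 to 2482) against 5.18 to 49.5 CPM. The transactivator *Ciita*, which switches these genes on, was far lower at 33.2 CPM (21.1 to 49.9), with 7 UMIs in the other clusters together. The H2-DM genes load peptide onto MHC class II and the H2-O genes, best known from B cells, restrain that step. *H2-DMb2* stood at 358 CPM (315 to 406) against 0 to 13.04 CPM (median 0.600). *H2-DMa* was less distinct, at 254 CPM (218 to 295) against 34.4 to 67.8 CPM (median 44.1). *H2-Oa* and *H2-Ob* stood at 98.3 CPM (76.3 to 125) each, against 6.87 to 49.3 and 2.53 to 31.4 CPM. *H2-Eb2*, a further beta chain gene, had 7 UMIs and 0 elsewhere. The 8 genes whose upstream stretches held GATTGG thus ran from 10.1 to 5288 CPM.

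Immunoglobulin transcripts made up a large part of the RNA of cluster 10. V, D and J segments took 4.82% of its UMIs, against 0.001 to 3.45% in the other clusters, where cluster 8 was the highest. Constant genes took 0.886%, against 0.014 to 0.174%. Reads of a 5′ library start at the first exons of an immunoglobulin transcript, where the V segment lies. All 10 constant genes that reached the minimum level were at least 2-fold higher in cluster 10 (8.63% of all tested genes were). *Ighg1* did not reach it and *Ighe* was not in the table.

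*Ighm*, the heavy chain of IgM, was the most abundant heavy chain gene at 1895 CPM (1794 to 2001), against 114 to 806 CPM in the other clusters (median 152). It was present in every cluster, and only 21.04% of its UMIs in the library were in cluster 10. The switched genes were more restricted. *Ighg2c* stood at 643 CPM (585 to 706) against 0 to 20.9 CPM (median 0.417), and *Ighg3* at 626 CPM (568 to 688) against 0 to 0.853 CPM (median 0.105), so that 97.7% of the *Ighg3* UMIs of the library were in cluster 10. *Ighg2b* stood at 121 CPM (96.9 to 150) and *Igha* at 114 CPM (90.4 to 142). *Ighd*, which naive B cells express beside *Ighm*, stood at 43.4 CPM (29.3 to 61.9), and *Ighg1* had 3 UMIs.

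As shares of the 2385 heavy chain constant UMIs, *Ighm* made up 55.0% (52.9 to 57.0), *Ighg2c* 18.7% (17.1 to 20.3), *Ighg3* 18.2% (16.6 to 19.8), *Ighg2b* 3.52% and *Igha* 3.31%. The other clusters of the library had 96.5% *Ighm*. Light chain constant UMIs were 71.6% *Igkc* (70.1 to 73.0), the kappa gene, and the remainder were the lambda genes *Iglc2* (16.4%), *Iglc3* (8.65%) and *Iglc1* (3.34%). *Igkc* (chromosome 6, 70726435 to 70726966) stood at 3876 CPM (3730 to 4025) against 0.368 to 605 CPM (median 18.3). Constant genes with near-identical copies, such as the lambda genes and the Ighg2 genes, can share reads, so their split is uncertain, and the reference genome is of another strain than these mice.

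**Figure D2:**
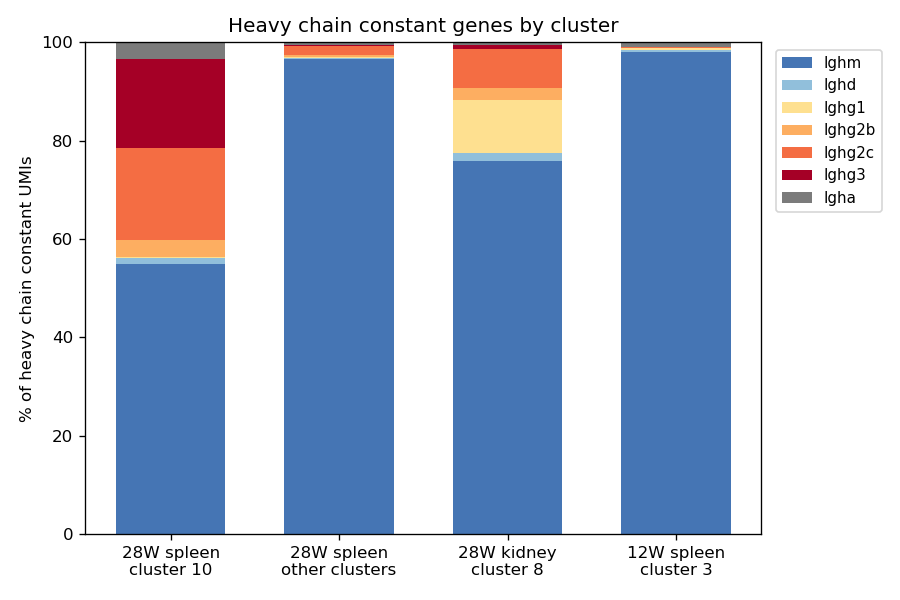
Share of heavy chain constant UMIs taken by each of 7 genes in cluster 10, in the other 10 clusters of 28W spleen, and in the clusters of 28W kidney and 12W spleen with the highest *Cd79a*. *Ighm* makes up 55.0% in cluster 10, 96.5% in the other clusters, 75.9% in 28W kidney cluster 8 and 98.1% in 12W spleen cluster 3, and *Ighg3* reaches 18.2% in cluster 10.

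A few V segments took most of the V segment UMIs. Among the 10220 UMIs of heavy chain V segments, *Ighv1-5* held 35.5% (34.6 to 36.4), *Ighv1-82* 21.5% (20.7 to 22.3) and *Ighv5-4* 17.3% (16.6 to 18.0), which is 74.2% for these 3 of the 56 segments with UMIs. Among the 21096 UMIs of kappa V segments, *Igkv17-127* held 35.3% (34.7 to 36.0), *Igkv10-96* 23.2% (22.7 to 23.8) and *Igkv13-85* 17.2% (16.7 to 17.7), which is 75.8% for 3 of 62 segments. These segments were nearly confined to cluster 10 within the library, with 7 UMIs of *Ighv1-5* and 23 of *Igkv17-127* in the other clusters. *Igkv10-96* was an exception, with 463 UMIs elsewhere, 314 of them in cluster 8. The effective number of segments (inverse Simpson index) was 4.69 for heavy and 4.59 for kappa V segments in cluster 10. A like concentration was seen in the other clusters pooled, at 4.54 and 5.37, and in 28W kidney cluster 8, at 3.02 and 5.25. For 12W spleen cluster 3 the numbers were 8.66 for heavy and 3.47 for kappa V segments. UMIs of 1 cell are not independent, and how many cells carried each segment cannot be read from a table of cluster means. Assignment between similar V segments on a reference of another strain is uncertain.

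**Figure D3:**
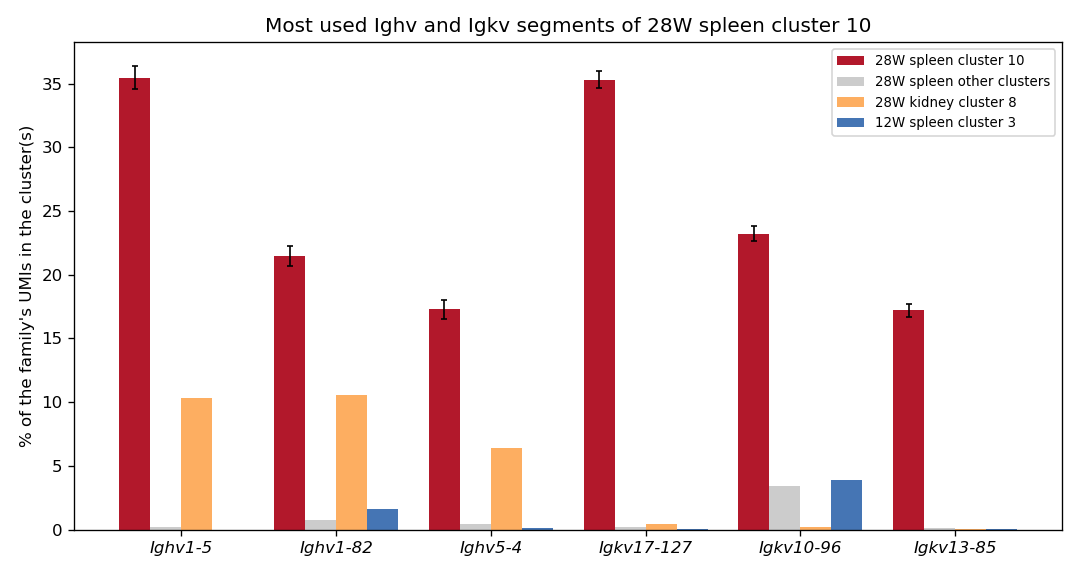
Share of the UMIs of its family (heavy or kappa V segments) held by the 3 most used segments of each family in cluster 10 (red, with 95% exact binomial intervals), in the other clusters of 28W spleen, in 28W kidney cluster 8 and in 12W spleen cluster 3. *Ighv1-5* holds 35.5% in cluster 10, 0.211% in the other clusters and 10.4% in 28W kidney cluster 8.

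Genes of the secretory programme of plasma cells were also present. Of 8 listed genes, 6 were tested and 4 were at least 2-fold higher (8.63% of all tested genes were). *Jchain*, which joins IgM and IgA into polymers, stood at 5519 CPM (5346 to 5697) against 0.368 to 4943 CPM (median 5.93), where the highest other value was that of cluster 8. *Mzb1*, an endoplasmic reticulum protein of plasma cells, marginal zone B cells and plasmacytoid dendritic cells, stood at 992 CPM (919 to 1069) against 0 to 91.3 CPM (median 1.12). *Xbp1*, the regulator of the secretory state, stood at 253 CPM (217 to 293) against 23.9 to 125 CPM. *Derl3* stood at 34.7 CPM (22.2 to 51.6) against 0 to 20.9 CPM, with 0.670 CPM over the other clusters pooled. The list summed to 6836 CPM in cluster 10 and to 5222 CPM in cluster 8. The defining plasma cell genes had few UMIs, with 7 UMIs of *Sdc1*, which encodes CD138, 4 of *Prdm1*, which encodes Blimp-1, and 0 of *Tnfrsf17*, the receptor BCMA. *Sdc1* was higher in cluster 8, at 20.9 CPM beside 10.1 CPM in cluster 10. *Prdm1* was higher in clusters 9 and 11, at 9.16 and 21.7 CPM beside 5.78 CPM.

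The lists for B cell subsets gave no clear assignment. A ratio to the other clusters cannot give one for genes that those clusters carry too. Of 3 follicular genes, 2 were at least 2-fold higher (8.63% of all tested genes were), *Fcer2a* and *Ighd*. *Fcer2a*, which encodes CD23, had 14 UMIs and 0 elsewhere. This is at least 211-fold higher against a floor of 3 counts over the other clusters. Of 5 marginal zone genes, 4 were tested and only *Cr2* was at least 2-fold higher (8.63% of all tested genes were). *Dtx1* stood at 110 CPM against 55.7 to 173 CPM and *Cd9* at 117 CPM against 53.2 to 253 CPM. Among 6 genes of age-associated B cells, which accumulate in lupus models, *Itgax* stood at 36.1 CPM (23.4 to 53.3) against 0 to 4.64 CPM and *Fcrl5* at 28.9 CPM (17.7 to 44.7) against 0.0957 CPM over the other clusters, whereas *Tbx21*, which encodes T-bet, stood at 17.4 CPM (8.96 to 30.3) against 38.0 CPM and *Cxcr3* at 66.5 CPM (48.7 to 88.7) against 173 CPM. *Itgax* is also a dendritic cell gene. Of the germinal centre list, *Bcl6* had 4 UMIs, *Rgs13* 1 and *Mybl1* 0. *Fas*, a death receptor that T cells carry too, stood at 31.8 CPM (19.9 to 48.2), below the 43.9 to 108 CPM of the other clusters.

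Receptors through which B cells take up survival signals were higher. *Tnfrsf13c*, the BAFF receptor, stood at 110 CPM (86.6 to 138) against 4.96 to 18.1 CPM, and *Tnfrsf13b*, which encodes TACI, at 99.7 CPM (77.6 to 126) against 7.21 to 38.3 CPM. Endosomal nucleic acid sensing is the pathway by which DNA and RNA activate B cells and plasmacytoid dendritic cells in lupus. Of 7 of its genes, 2 were at least 2-fold higher (8.63% of all tested genes were). These were *Unc93b1*, the chaperone of the receptors, at 301 CPM (261 to 344) against 9.77 to 23.0 CPM, and the transcription factor *Irf5* at 146 CPM (119 to 177) against 0 to 7.82 CPM. The receptors themselves were low, with 12 UMIs of *Tlr7* (17.4 CPM, against 5.97 over the other clusters) and 7 of *Tlr9* (10.1 CPM, against 0.0957).

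Costimulatory genes and the ligands of PD-1 were read because the neighbouring cells were sorted on PD-1. *Cd40*, the receptor for T cell help, stood at 67.9 CPM (49.9 to 90.4), with 2 UMIs in all other clusters, and *Cd83* at 134 CPM (109 to 165) against 2.70 to 21.7 CPM. *Cd86* stood at 59.3 CPM (42.5 to 80.4) against 13.04 to 79.5 CPM, with cluster 11 above cluster 10. The PD-1 ligands differed little between the sides. *Cd274*, which encodes PD-L1, stood at 15.9 CPM (7.94 to 28.5) against 16.4 CPM, and *Pdcd1lg2*, which encodes PD-L2, at 7.23 CPM (2.35 to 16.9) against 8.46 CPM. With 11 and 5 UMIs, the ratio to the other clusters was 0.969 (0.481 to 1.75) for *Cd274* and 0.855 (0.275 to 2.02) for *Pdcd1lg2*.

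T cell genes were low in cluster 10. Of 18 T cell identity genes, 17 were at least 2-fold lower (4.89% of all tested genes were) and 17 were below each other cluster (21.2% of all), with a median log2 ratio of -2.01 beside the -0.17 of all tested genes. The sum over the list was 2213 CPM (2104 to 2327), against 7008 to 12301 CPM in the other clusters (median 9260). *Cd3e*, a chain of the T cell receptor complex, stood at 260 CPM (224 to 301) against 768 to 1605 CPM (median 1111), or 24.5% of the level in the other clusters (21.0 to 28.3). *Cd8a*, the gene of a sort marker, stood at 143 CPM (116 to 174) against 309 to 722 CPM (median 509), or 28.9% (23.4 to 35.2). *Trac*, the T cell receptor alpha constant gene, stood at 39.0 CPM (25.7 to 56.8) against 180 to 390 CPM (median 221). Apart from *Cd2*, the listed T cell genes were thus lower than in any other cluster and still detected. *Cd2* stood at 182 CPM against 266 CPM over the other clusters.

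All 11 cytotoxic genes were at least 2-fold lower (4.89% of all tested genes were). Of these, 8 were below each other cluster (21.2% of all), and the median log2 ratio of the list was -1.96. *Ccl5*, a chemokine of effector T cells, stood at 990 CPM (917 to 1067) against 638 to 18451 CPM (median 2870), so that clusters 3, 6 and 7 were lower than cluster 10. *Nkg7*, a granule protein, stood at 142 CPM (115 to 173) against 485 to 1646 CPM, and *Gzmb* had 0 UMIs. Of the 9 genes of the PD-1 and activation list, 6 were at least 2-fold lower (4.89% of all tested genes were). The median log2 ratio of that list was -1.17. *Pdcd1*, which encodes PD-1, had 7 UMIs, or 10.1 CPM (4.07 to 20.8), against 21.4 to 75.6 CPM in the other clusters (median 36.1). *Cd44*, the gene of the other sort marker, stood at 54.9 CPM (38.9 to 75.4) against 35.0 to 148 CPM and did not differ by 2-fold. *Havcr2*, which encodes TIM-3 and is also used by dendritic cells and macrophages, was the reverse, at 20.2 CPM (11.1 to 34.0) against 0 to 2.29 CPM.

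T cell receptor V segments were counted at 315 UMIs for the beta chain (455 CPM, against 1820 CPM over the other clusters) and 98 UMIs for the alpha chain (142 CPM, against 792 CPM). *Trbv1* and *Trbv4* held 15.9% each (12.0 to 20.4) and *Trbv20* 14.9% (11.2 to 19.3), beside 13.1%, 9.85% and 5.43% in the other clusters. The beta chain V segments of cluster 10 were spread over 17 segments.

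**Figure D4:**
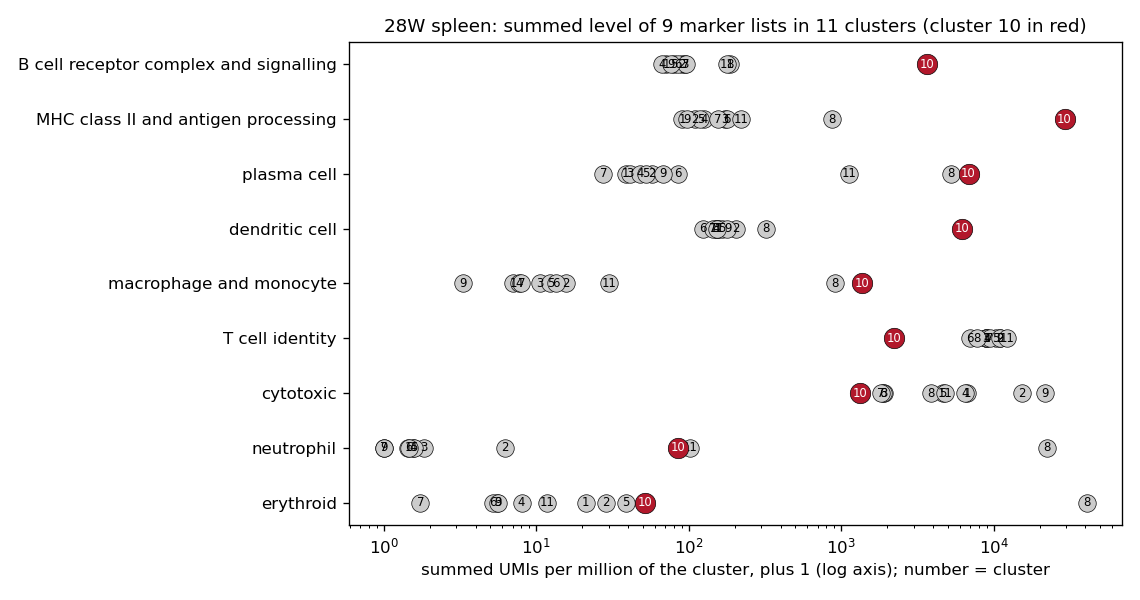
Summed level of 9 marker lists in each of the 11 clusters of 28W spleen, as CPM plus 1 on a log axis, with each circle carrying its cluster number and cluster 10 in red. Cluster 10 is the highest for the B cell receptor (3667 CPM), MHC class II (29147 CPM), plasma cell (6836 CPM), dendritic cell (6187 CPM) and macrophage and monocyte (1372 CPM) lists and the lowest for T cell identity (2213 CPM) and cytotoxic genes (1318 CPM).

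Markers of other cell types were also high in cluster 10. Of 6 dendritic cell genes, 5 were at least 2-fold higher (8.63% of all tested genes were). All 6 were above each other cluster (13.8% of all). Their sum was 6187 CPM (6003 to 6375) against 123 to 318 CPM elsewhere (median 153). Most of it was *Cst3*, a cystatin abundant in dendritic cells and macrophages, at 6047 CPM (5865 to 6233) against 122 to 313 CPM (median 153). *Siglech* (chromosome 7, 55768178 to 55778925), a surface marker of plasmacytoid dendritic cells, stood at 67.9 CPM (49.9 to 90.4) with 47 UMIs, and was at 0 UMIs in all other clusters, which is at least 710-fold higher. *Xcr1*, a chemokine receptor of type 1 dendritic cells, stood at 36.1 CPM (23.4 to 53.3), with 4 UMIs elsewhere. *Clec9a*, of the same cells, had 7 UMIs and 0 elsewhere.

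Further lists, chosen after the values were seen, described the dendritic side in more detail. All 5 plasmacytoid genes were above each other cluster (13.8% of all tested genes were). Their sum was 490 CPM (439 to 545) against 1.47 to 23.5 CPM. Next to *Siglech* they comprise *Klk1* with 33 UMIs and 0 elsewhere, *Pld4* at 223 CPM, *Tcf4* at 99.7 CPM and *Cox6a2* at 52.0 CPM. The 6 type 1 dendritic genes summed to 314 CPM (273 to 358) against 2.84 to 13.04 CPM, with the transcription factor *Batf3* at 50.6 CPM. The 6 genes of migratory dendritic cells summed to 493 CPM (442 to 548) against 0.367 to 26.1 CPM, led by the actin bundling protein *Fscn1* at 374 CPM (330 to 423), while the chemokines *Ccl17* and *Ccl22* had 3 and 2 UMIs.

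Macrophage genes were higher as well. All 6 macrophage and monocyte genes were at least 2-fold higher (8.63% of all tested genes were). Of these, 5 were above each other cluster (13.8% of all). The sum over the list was 1372 CPM (1286 to 1462) against 2.29 to 915 CPM (median 10.5). *C1qa*, a chain of complement C1q made by macrophages, stood at 247 CPM (211 to 287) against 0 to 15.6 CPM (median 1.93), and *Csf1r*, the receptor that macrophages depend on, at 59.3 CPM (42.5 to 80.4) with 10 UMIs elsewhere. *Lyz2*, a lysozyme of macrophages and neutrophils, stood at 720 CPM (658 to 786) and was exceeded by cluster 8 at 876 CPM. A list of 8 genes of splenic red pulp macrophages, which recycle iron, was chosen after the values were seen. All 8 were at least 2-fold higher (8.63% of all tested genes were). Examples are the haem oxygenase *Hmox1* at 224 CPM (190 to 262), the iron exporter *Slc40a1* at 60.7 CPM (43.8 to 82.1) and the transcription factor *Spic* at 18.8 CPM (10.0 to 32.1). The part of these cell types in the values of genes they share with B cells, such as the MHC class II genes, *Irf8*, *Lyn*, *Syk*, *Irf5* and *Cd40*, was not tested.

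Genes of further cell types were read in the same way. The NK cell genes *Ncr1* and *Klrb1c* had 0 UMIs, *Cd4* had 6 and *Foxp3* 3. The neutrophil genes *Ngp* and *Camp* had 0 UMIs, whereas *S100a8* stood at 44.8 CPM (30.4 to 63.6) and *S100a9* at 39.0 CPM (25.7 to 56.8). Cluster 8 was above cluster 10 for *S100a8*, and clusters 8 and 11 were for *S100a9*, with cluster 8 at 7271 and 8017 CPM. The erythroid genes *Hba-a1*, *Hbb-bs* and *Hbb-bt* stood at 14.5, 27.5 and 8.67 CPM. Cluster 8 stood at 14360, 20408 and 5785 CPM for these 3 genes, and without clusters 8 and 11 in the reference their direction turned from lower to higher in cluster 10. Of 8 interferon-stimulated genes 1 was at least 2-fold lower (4.89% of all tested genes were). Their median log2 ratio was -0.58, beside -0.17 for all tested genes. Of 6 stress genes 1 was at least 2-fold higher (8.63% of all tested genes were), with a median log2 ratio of 0.15. Of 6 cell cycle genes 3 were at least 2-fold lower than in the other clusters pooled (4.89% of all tested genes were). The sum of the 6 genes was 418 CPM, near the median cluster (433 CPM). It ranged from 231 to 3084 CPM over the other clusters, with the highest value in cluster 6. Of 7 homing genes, 1 was at least 2-fold higher (8.63% of all tested genes were) and 1 at least 2-fold lower (4.89% of all). *Ccr6* was higher, at 17.4 CPM (8.96 to 30.3) against 2.23 CPM over the other clusters. *Gpr183* was lower, at 39.0 CPM (25.7 to 56.8) against 89.7 CPM.

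**Figure D5:**
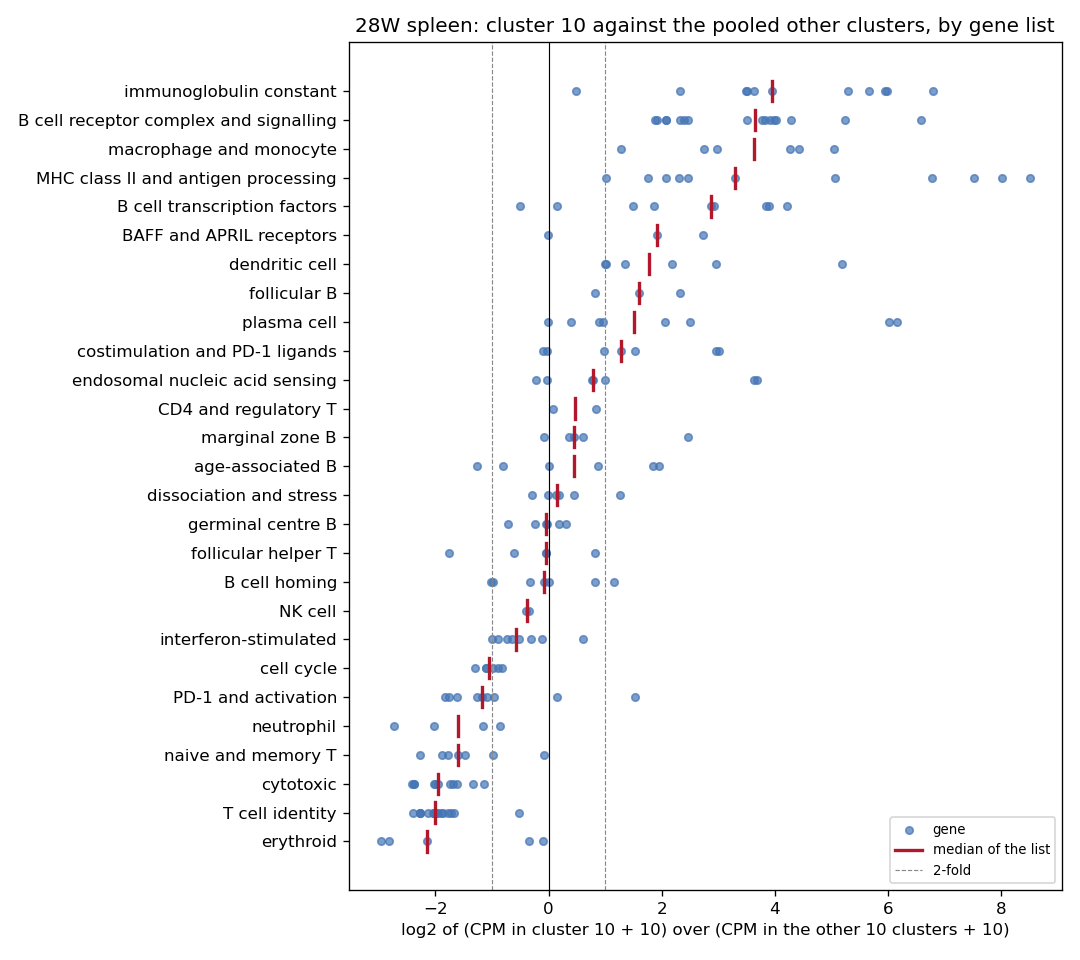
Log2 ratio of CPM in cluster 10 over the pooled other clusters (10 CPM added to each side) for the genes of 27 lists, ordered by list median. Blue points are genes, red bars list medians and dashed lines 2-fold; medians run from 3.94 for immunoglobulin constant genes to -2.15 for erythroid genes, whose sign turns for the haemoglobin genes without clusters 8 and 11, and T cell identity lies at -2.01.

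Among the 2852 genes with at least 50 CPM in cluster 10 or the other clusters, V, D and J segments aside, the 15 highest log2 ratios belonged to *Cd74* (8.51), *H2-Aa* (8.03), *H2-Eb1* (7.53), *Igkc* (6.81), *H2-Ab1* (6.78), *Cd79a* (6.59), *Mzb1* (6.16), *Jchain* (6.02), *Iglc2* (5.98), *Ighg3* (5.95), *Ighg2c* (5.67), *Ly6d* (5.33), *Iglc3* (5.30), *Ms4a1* (5.24) and *Tyrobp* (5.23). All but *Tyrobp*, an adaptor of myeloid and NK cell receptors, are genes of B cells, plasma cells or antigen presentation. The 10 lowest were *Hba-a1* (-2.96), *Hbb-bs* (-2.83), *Xcl1* (-2.77), *Ngp* (-2.73), *Eomes* (-2.42), *Trbc1* (-2.39), *Nkg7* (-2.38), *Ctsw* (-2.38), *Sidt1* (-2.37) and *Trac* (-2.28). Without clusters 8 and 11 in the reference the log2 ratio was 0.70 for *Hba-a1* and 1.16 for *Hbb-bs*, and *Ngp* stood at 4588 CPM in cluster 8 and at no more than 3.61 CPM elsewhere. The genes outside the 27 lists whose CPM over the 11 clusters was most like that of *Cd79a* were *Dok3* (Pearson r = 0.997 on log2 of CPM plus 10), *Lgmn* (0.989), *Csf2ra* (0.988), *Ctsh* (0.988) and *Fscn1* (0.986), of 2305 compared. The points are 11 clusters of the same library, and cluster 10 stands far from the others in each of these genes. *Lgmn*, *Ctsh*, *Csf2ra* and *Fscn1* are better known from myeloid and dendritic cells than from B cells.

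For comparison, the cluster with the highest *Cd79a* was taken in each other library. In 28W kidney this was cluster 8 (544 of 7135 cells, 1074 CPM *Cd79a*) and in 12W spleen cluster 3 (1061 of 6894 cells, 160 CPM). Each table has its own normalization, so these levels rest on rescaling to the UMIs of each cluster. Age, organ, library and the mix of cell types in a cluster cannot be told apart, for levels and for isotype shares alike. Intervals of ratios cover counting error only.

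The B cell receptor list summed to 3667 CPM in cluster 10 and 2433 CPM in 28W kidney cluster 8. *Cd79a* was 1.11 times as high in cluster 10 (1.03 to 1.20), *Ms4a1* 1.80 times (1.56 to 2.07) and *Cd79b* 2.38 times (2.12 to 2.67), whereas *Ebf1* was lower, at 0.640 times (0.525 to 0.776). *Cd74* was 1.86 times (1.82 to 1.90) and *H2-Aa* 2.15 times (2.06 to 2.23) as high. Ratios above 10 were seen for genes of myeloid cells. *Cst3* was 17.7 times (16.5 to 19.0), *Tyrobp* 14.4 times (12.0 to 17.4) and *C1qa* 38.5 times (23.6 to 66.5) as high in cluster 10, and *Lyz2* 224 times (117 to 493). The dendritic cell list summed to 6187 CPM in cluster 10 and 347 CPM in 28W kidney cluster 8, and the macrophage and monocyte list to 1372 and 29.6 CPM. Within 28W kidney both lists were highest in another cluster, cluster 12, at 14941 and 8640 CPM. T cell identity genes summed to 2213 and 5287 CPM.

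The immunoglobulin genes differed in kind. *Ighg3* was 67.5 times (45.4 to 105) and *Igha* 14.6 times (8.97 to 24.5) as high in cluster 10 as in 28W kidney cluster 8, where *Ighg1* stood at 139 CPM beside 3 UMIs in cluster 10. Most kidney UMIs of *Ighg3* and *Igha* lay in other clusters, with 1644 and 2858 there beside 26 and 22 in kidney cluster 8. In 12W spleen cluster 3, *Ighm* made up 98.1% of heavy chain constant UMIs and *Ighg2c* and *Ighg3* had 2 UMIs each. Leading V segments were partly shared with kidney. *Ighv1-5* held 10.4%, *Ighv1-82* 10.6% and *Ighv5-4* 6.39% of heavy chain V segment UMIs in 28W kidney cluster 8, and 0, 1.62 and 0.150% in 12W spleen cluster 3. The kappa segment *Igkv13-85*, with 3631 UMIs in cluster 10, had 2 UMIs in 28W kidney cluster 8 and 1 in 12W spleen cluster 3. *Igkv17-127* had 222 and 7 UMIs there, and *Igkv10-96* 85 and 1475. Most kidney UMIs of *Ighv1-5* and *Igkv10-96* lay outside kidney cluster 8, with 6488 and 8659 in the library beside 2504 and 85 in that cluster. Those of *Ighv1-82*, *Ighv5-4* and *Igkv17-127* lay mostly within it.

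The B cell receptor, MHC class II and dendritic cell lists summed to less in 12W spleen cluster 3 than in cluster 10. *Cd79a* was 7.48 times (6.60 to 8.49), *Cd74* 8.20 times (7.92 to 8.49) and *Cst3* 8.12 times (7.67 to 8.60) as high in cluster 10. In 12W spleen cluster 3 the T cell identity list summed to 8418 CPM, near the 9485 CPM of the other clusters of that library, and its erythroid list to 37158 CPM.

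B cell genes were also counted at low level outside cluster 10, and their proportions were compared with those inside. For 1 UMI of *Cd79a* there were 13.6 UMIs of *Cd74* both in cluster 10 and outside it, 4.42 of *H2-Aa* inside and 4.04 outside, and 0.339 of *Ms4a1* inside and 0.375 outside. *Cd79a* had 80 UMIs in all other clusters together, so the outside values describe the pool and not each cluster. *Cd79a* and *Cd74* stood at 5.90 and 62.5 CPM in cluster 6, at 0.632 and 23.4 CPM in cluster 2, and at 0 and 16.0 CPM in cluster 9. Other genes kept no such proportion in the pool. *H2-Ab1* had 1.98 inside and 4.55 outside, *Igkc* 3.24 and 9.69, *Jchain* 4.62 and 29.4, and *Cst3* 5.06 and 61.2. Without cluster 8, *Jchain* stood at 6.95 outside.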

How the data were processed

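Per the labels and methods, PD-1+CD44+CD8+ T cells were sorted from spleens (12W, 28W) and collagenase-digested kidneys (28W) and sequenced with 10x Genomics 5′ v2 chemistry. Submitters' processing notes name Cell Ranger 2.1.1, R 3.6.1 and GRCm38. The annotation release and cell filters are not given in the sources used here. The authors deposited cluster numbers of cell barcodes and, per cluster, mean UMI counts of each gene, normalized, which pool the 4 samples of a group. Their log2 fold changes and adjusted p-values were not used. Each column held whole multiples of 1 step, and dividing by it gave whole UMIs for 100% of values within 0.001. UMIs were summed over the 10 other clusters and expressed per 1000000. Log2 ratios used a pseudocount of 10 CPM.

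The 28W spleen library held 32023473 UMIs, 28W kidney 29937384 and 12W spleen 34742303. With 1 library a group there is no test. Intervals (95%) are exact Poisson for levels, Clopper-Pearson for shares and conditional binomial for ratios (Python 3.11.15, scipy 1.17.1). The script was tested on simulated data. GENCODE M21, the source of coordinates, held 18960 of 18992 gene identifiers. The members and the 27 lists (186 genes) were chosen with earlier results of these data known, and 10 added lists after the values were seen. Named were all listed genes, the 15 highest and 10 lowest log2 ratios at 50 CPM or more, the 3 most used Ighv, Igkv and Trbv segments, and the 5 genes most like *Cd79a*. Alternatives varied the pseudocount, weighting, centring, UMI totals, minimum level and reference clusters. The clonotypes of the T cell receptor were not analysed here. Values of 2 listed genes are not reported here.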

Additional observations from a re-analysis of the deposited data

How the results depend on the processing

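No paired analysis was possible because the deposited tables pool the 4 labelled samples of a group, which may be lanes of 1 library, and for the same reason no sample could be left out in turn. With 1 CPM added in place of 10, the median log2 ratio was 5.44 for the B cell receptor list, 6.23 for MHC class II and -2.32 for cytotoxic genes, and 1019 genes were at least 2-fold lower. With 50 CPM they were 1.81, 1.71 and -1.04, with 231 genes higher and 85 lower. Genes at least 2-fold lower numbered 590 with the other clusters weighted equally and 240 with the median ratio set to 0. UMI totals without receptor, mitochondrial and ribosomal protein genes gave medians of 4.01 (B cell receptor) and 3.84 (MHC class II). With at least 50 UMIs in the library, MHC class II was at 5.06 and 419 genes were higher. Without a minimum level the counts stayed at 694 and 393, as the added 10 CPM keeps lower genes under 2-fold. The share of B cell receptor UMIs in cluster 10 was 57.3% for a subset of 4 of its genes alone and 78.3% with clusters weighted equally. In a reference without clusters 8 and 11, chosen after seeing the data, the log2 ratio turned to 2.20 for *S100a9*, 0.70 for *Hba-a1*, 1.16 for *Hbb-bs* and 0.62 for *Hbb-bt*. Of 170 named genes past 2-fold, the other 166 kept their direction there and all 170 under the other 6 settings, and 163 to 170 stayed past 2-fold except with 50 CPM added (116). The causes were not tested. Depth limits genes under 4.34 CPM in cluster 10.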
